A study of Mus musculus with 9 samples.

Results

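Genes that fold proteins in the endoplasmic reticulum (ER), and genes of the stress response that adjusts this capacity, were followed in mouse colonic mucosa. The set held 37 genes named by symbol, and a probe stood for one of them when its RefSeq transcript accession mapped to that symbol. Of these, 35 were measured among 21094 features tested, and each of the 35 was well above background on all 9 arrays. No probe was named here for Dnajb11, a J-domain partner of BiP, or for Pdia3, a disulfide isomerase that works with the lectin chaperones. RNA came from mucosa labelled as normal of ICR mice, an outbred stock, and all groups had received the carcinogen 1,2-dimethylhydrazine (DMH) under the skin at 20 mg/kg weekly for 20 weeks. The hCA-Tumor group was fed 3% calcium and carried tumors, the hCA-Notumor group was fed the same diet and carried none, and the group called DMH was fed 1.24% calcium, with 3 arrays in each group. The labels put the tumor status of the DMH mice as control without saying more, and the age and sex of the mice are not given in the sources used here. An array is not tied to a mouse of its own by the labels. The p-values below therefore cover the scatter among arrays alone, and part or all of it may be technical. The design text sets high calcium against DMH, and the contrast of both high calcium groups addresses how they differed from each other.

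Secreted and membrane proteins enter the ER through the Sec61 channel, where Hsp70 and Hsp90 type chaperones, sugar-binding lectins and disulfide isomerases fold them. Chains that fail to fold are drawn back into the cytosol and degraded, a process called ER-associated degradation (ERAD). Misfolded protein activates the sensors IRE1, ATF6 and PERK, which raise chaperone and ERAD genes through XBP1 and ATF6 and limit translation through phosphorylation of eIF2α. In the colon, mucus-secreting goblet cells and antibody-secreting plasma cells carry a large secretory load, and Ern2 encodes IRE1β, the form of IRE1 found in mucosal epithelium.

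A scaled level below is the log2 processed signal minus the 75th percentile of its array, and a difference is called where limma's Benjamini-Hochberg adjusted p over all 21094 features is under 0.05. Differences are on the log2 scale, ± their standard error, with n = 3 arrays per group, and percentages of DMH or hCA-Notumor are the same differences on the linear scale. On the arrays 61.1 to 73.8% of 41174 probes were well above background and 0 spots were saturated. Slide 1 carried the 3 hCA-Notumor arrays and DMH replicate 1, slide 2 carried hCA-Tumor replicates 1 and 2 and DMH replicates 2 and 3, and slide 3 carried hCA-Tumor replicate 3. The first principal component, with 50.3% of the variance, followed slide (92.1% of it) more than group (64.8%). Values with slide as a block therefore stand beside the differences. For hCA-Tumor minus DMH the blocked difference equals that within slide 2, and for hCA-Notumor minus DMH that within slide 1, so only the p differs between them. No slide carried both high calcium groups. Their blocked difference is therefore the first of these minus the second, joined through the DMH arrays, and on slide 1 that is DMH replicate 1 alone. Replicate 3 of hCA-Tumor, alone on slide 3, does not enter any blocked difference. The 9 measured goblet cell markers were well above background on every array, and Muc2 was not measured. Of 10 colonocyte markers 9 were well above background on hCA-Tumor replicates 1 and 2, and all 10 on the other arrays. Marker lists of other cell types differed between the groups as well. In bulk samples fewer cells of a type and less RNA per cell cannot be told apart.

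Promoter sequences show which members carry the known response elements of this pathway, and those of 6 members are printed because they hold such an element and changed in hCA-Tumor mucosa. Each is the 250 bases before the annotated gene start from RefSeq, build GRCm38.p6, read 5′ to 3′ on the gene's strand, and capitals mark the fixed letters of the matched element. The ER stress response element (ERSE) was searched as CCAAT, then 9 bases, then CCACG. Its shorter form (ERSE-II) was searched as ATTGG, then 1 base, then CCACG. The C/EBP-ATF response element (CARE), which ATF4 and CHOP can bind, was searched as TGATG, then 1 base, then AA, and the core of the unfolded protein response element (UPRE), which XBP1 can bind, as TGACGTGG. All were searched on both strands. In Hspa5 (chr2:34771840-34772089, + strand) ERSE spans positions -65 to -47 from the start. In Syvn1 (chr19:6046326-6046575, + strand) it spans -44 to -26. On the opposite strand ERSE lies at -126 to -108 in Creld2 (chr15:88819396-88819645, + strand), at -162 to -144 in Calr (chr8:84846932-84847181, − strand) and at -156 to -138 in Derl3 (chr10:75893148-75893397, + strand). Herpud1 (chr8:94386179-94386428, + strand) holds CARE at -112 to -105 on the opposite strand and ERSE-II at -52 to -42.
Hspa5: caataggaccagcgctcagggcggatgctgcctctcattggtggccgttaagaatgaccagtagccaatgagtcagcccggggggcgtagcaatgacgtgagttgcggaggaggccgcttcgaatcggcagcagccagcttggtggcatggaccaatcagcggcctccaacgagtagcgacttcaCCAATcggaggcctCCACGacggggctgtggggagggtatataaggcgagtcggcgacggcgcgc
Creld2: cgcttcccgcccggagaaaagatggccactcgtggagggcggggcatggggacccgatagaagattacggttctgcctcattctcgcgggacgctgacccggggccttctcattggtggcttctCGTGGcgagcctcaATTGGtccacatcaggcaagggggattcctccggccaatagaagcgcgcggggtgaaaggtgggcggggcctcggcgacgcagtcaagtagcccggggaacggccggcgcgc
Calr: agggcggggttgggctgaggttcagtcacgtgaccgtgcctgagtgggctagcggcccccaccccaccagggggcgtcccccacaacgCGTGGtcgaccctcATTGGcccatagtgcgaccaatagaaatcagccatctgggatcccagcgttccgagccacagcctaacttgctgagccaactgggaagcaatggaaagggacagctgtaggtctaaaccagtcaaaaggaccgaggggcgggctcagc
Derl3: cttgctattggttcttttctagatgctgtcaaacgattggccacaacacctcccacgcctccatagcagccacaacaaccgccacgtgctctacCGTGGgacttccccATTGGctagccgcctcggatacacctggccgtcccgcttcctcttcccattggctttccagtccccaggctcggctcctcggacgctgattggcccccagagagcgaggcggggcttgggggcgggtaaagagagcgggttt
Syvn1: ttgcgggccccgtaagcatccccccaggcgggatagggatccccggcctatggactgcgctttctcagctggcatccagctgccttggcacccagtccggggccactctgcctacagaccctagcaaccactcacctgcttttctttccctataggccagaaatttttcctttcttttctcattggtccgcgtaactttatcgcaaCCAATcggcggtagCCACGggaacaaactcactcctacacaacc
Herpud1: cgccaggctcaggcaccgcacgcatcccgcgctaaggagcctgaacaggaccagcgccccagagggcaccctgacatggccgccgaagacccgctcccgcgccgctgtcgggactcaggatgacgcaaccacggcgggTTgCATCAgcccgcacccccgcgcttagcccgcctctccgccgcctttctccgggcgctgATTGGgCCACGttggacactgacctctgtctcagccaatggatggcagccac

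Promoters of 30 of the 37 members were matched, each from 250 bases before the start to 50 after it. Counted by gene, ERSE was found in 9 of the 30 (30%), against 37 of all 27025 genes with promoters (0.137%). Besides the 5 printed above these were Hsp90b1, with 2 matches, Dnajc3, Canx and Pdia6. ERSE-II was found in Dnajb11 and Herpud1 (6.67%, against 0.0444% of all genes), and CARE in Herpud1, Trib3, Asns and Chac1 (13.3%, against 4.51%). UPRE was found in 0 of the 30, against 0.714% of all genes. The members were chosen as genes of this pathway, and these shares were not tested. Of the 9 members with ERSE, 5 were lower in hCA-Tumor than in DMH (Hspa5, Creld2, Calr, Syvn1 and Derl3), while Hsp90b1, Dnajc3, Canx and Pdia6 did not pass with the brightest probe of the gene. This split rests on that choice of probe, since each of the last 4 also had a dimmer probe called lower in this contrast. Of all features 15.9% were lower and 21% higher there, and 13 of the 35 measured members were lower. With slide as a block Calr and Syvn1 did not pass. Herpud1, the 1 measured member with ERSE-II, was higher, and Trib3, Asns and Chac1, which share CARE with it, did not pass. A match describes the letters and not a bound site.

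**Figure D1:**
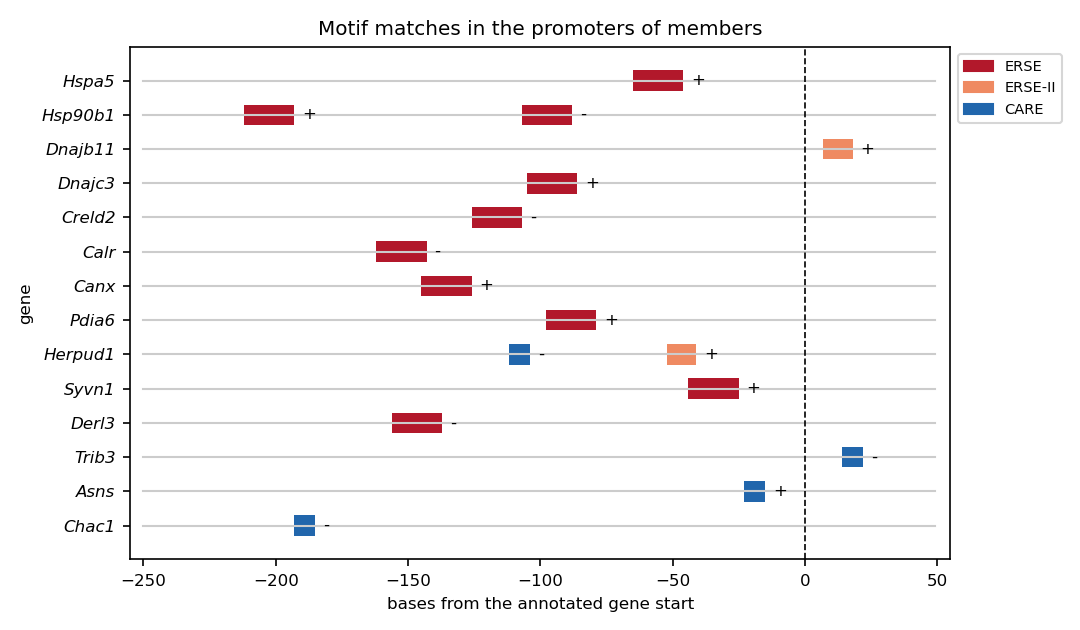
Matches of ERSE, ERSE-II and CARE in the promoters of the 14 members that hold at least 1, in bases from the annotated gene start (dashed line); + and - give the strand of the match relative to the gene. The 10 ERSE matches lie before the start, between -212 and -26, and Herpud1 holds both ERSE-II and CARE.

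In hCA-Tumor mucosa 13 of the 35 members were lower than in DMH and 2 were higher. The lower ones were Hspa5, Dnajb9, Sdf2l1, Manf, Creld2, Calr, Pdia4, P4hb, Xbp1, Syvn1, Derl3, Ssr2 and Ppp1r15a, and the higher ones were Herpud1 and Ddit3. Of all features, 15.9% were lower and 21% were higher in this contrast. The median difference of the members was -0.14, beside 0.08 for all features. These counts take the brightest probe of each gene. Of the members not called by it, 9 had a dimmer probe called lower in hCA-Tumor minus DMH (Hsp90b1, Dnajc3, Canx, Pdia6, Sel1l, Derl1, Sec61a1, Ssr1 and Ssr3) and 0 had one called higher, when every kept probe was tested by itself. Among the dimmer probes of the members 16 of 29 were lower and 0 higher in this contrast, where 19.8% of all 27207 kept probes were lower and 19% higher. Those 27207 include the brightest probes, so the shares are not those of dimmer probes alone. Over all 4602 genes with several kept probes the dimmest lay below the brightest in 68.6% of cases, with medians of -0.13 and 0.02. In hCA-Notumor mucosa the members split both ways against DMH. Lower were 9 (Hspa5, Manf, Canx, Pdia6, Atf6, Sel1l, Syvn1, Derl2 and Sec61a1) and higher were 5 (Calr, Ern2, Xbp1, Ddit3 and Edem1), where 17.3% of all features were lower and 18.4% higher. The members' median was -0.03, beside 0.07 for all features. Both contrasts share the DMH arrays.

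Set against each other on the same diet, hCA-Tumor mucosa had 14 members lower and 3 higher than hCA-Notumor mucosa. Lower were Ern2, Edem1 and 12 of the 13 named above, without Syvn1, and higher were Herpud1, Derl2 and Sec61a1. Of all features 20.6% were lower and 27% higher in this contrast, and the members' median of -0.11 stood beside 0.00 for all features. With both high calcium groups averaged, 14 members were lower than in DMH, among them Pdia6, Atf6, Sel1l and Derl2, and 3 were higher (Ern2, Ddit3 and Herpud1), against 13.8% and 17.8% of all features, with medians of -0.15 and 0.07. Member medians by array were 2.79, 2.78 and 2.77 on the hCA-Tumor arrays, 2.97, 3.01 and 3.06 on the hCA-Notumor arrays and 2.87, 2.96 and 2.93 on the DMH arrays. The hCA-Tumor arrays lay lowest and the hCA-Notumor arrays highest, just above DMH. These are medians of levels. Gene by gene the median difference of hCA-Notumor minus DMH was -0.03, with 14 of 35 members above 0.

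With slide as a block, 13 members were lower and 2 higher for hCA-Tumor minus DMH, where 3924 of 21094 features were lower and 5041 higher (42.5% called). Within slide 2 alone 14 members were lower and 2 higher, where 8430 of 21093 features were called, 57.5% of them higher. For hCA-Notumor minus DMH the block left 2 lower (Syvn1 and Derl2) and 5 higher, Trib3 in place of Ddit3. Of all features 2662 were lower and 2974 higher there (26.7% called). Within slide 1, with DMH replicate 1 as the only DMH array, the members' median was -0.04, beside 0.02 for all features. For hCA-Tumor minus hCA-Notumor, which no slide holds together, the block left 12 lower and 2 higher, where 3033 features were lower and 3287 higher (30% called). For the mean of both groups it left 15 lower and 3 higher, where 3663 features were lower and 4527 higher (38.8% called). The calls of hCA-Tumor mucosa were thus about as many with the block, while 7 of the 9 lower calls of hCA-Notumor mucosa were not made with it.

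Put together, 12 of the 35 members were lower with tumors than in both other groups (Hspa5, Dnajb9, Sdf2l1, Manf, Creld2, Calr, Pdia4, P4hb, Xbp1, Derl3, Ssr2 and Ppp1r15a), a pattern met by 9.54% of all features. With slide as a block 9 members met it (8.87% of all features), namely Trib3 and 8 of these 12, without Creld2, Calr, Pdia4 and Ppp1r15a. Herpud1 alone was higher with tumors than in both other groups, as were 12.8% of all features, and it remained so with the block (10.1%). Calr, Ern2, Xbp1 and Edem1 were higher without tumors than in both other groups (10.7% of all features), and Derl2 and Sec61a1 were lower (11.4%). With the block the higher ones were these 4 and Trib3 (7.46%), and Derl2 alone was lower (6.21%). By its dimmer probe, without the block, Trib3 was called lower in hCA-Notumor than in DMH and higher in hCA-Tumor than in hCA-Notumor. Hspa5, Manf and Syvn1 were lower than DMH in both high calcium groups (5.77%), and Ddit3 was higher in both (7.21%). With the block 0 members were lower in both (4.87%) and 0 were higher in both (5.3%). Since both arms are set against the same DMH arrays, the last counts do not come from independent comparisons.

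**Figure D2:**
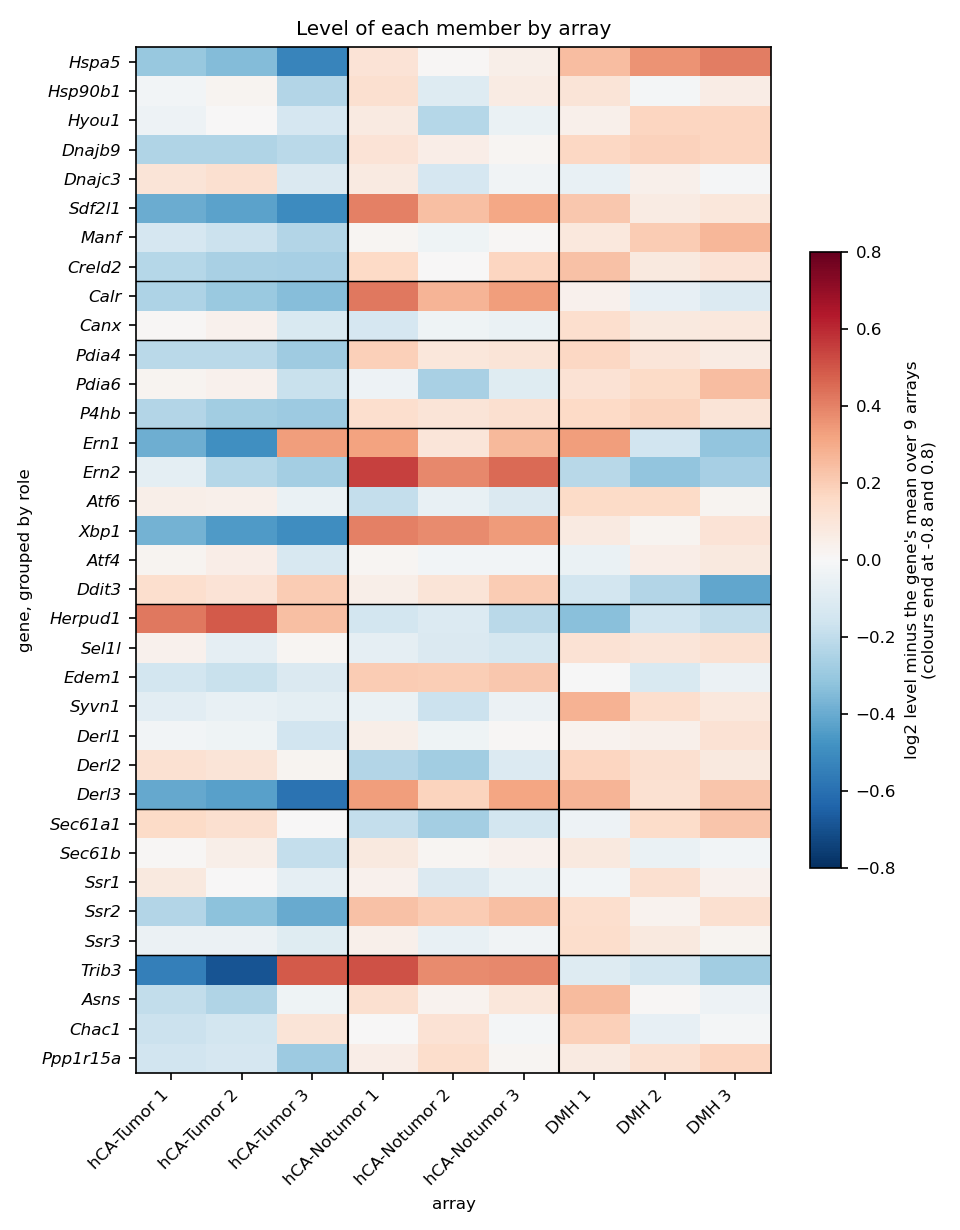
Scaled log2 level of the 35 measured members on each of the 9 arrays, minus the gene's mean over the 9 arrays; genes run down by role and arrays run across by group, with hCA-Tumor at the left and DMH at the right. Blue cells fill the hCA-Tumor columns of Hspa5, Sdf2l1, Xbp1 and Derl3, red cells fill the hCA-Notumor columns of Calr, Ern2 and Xbp1, and hCA-Tumor 3 stands apart from its group for Ern1 and Trib3.

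**Figure D3:**
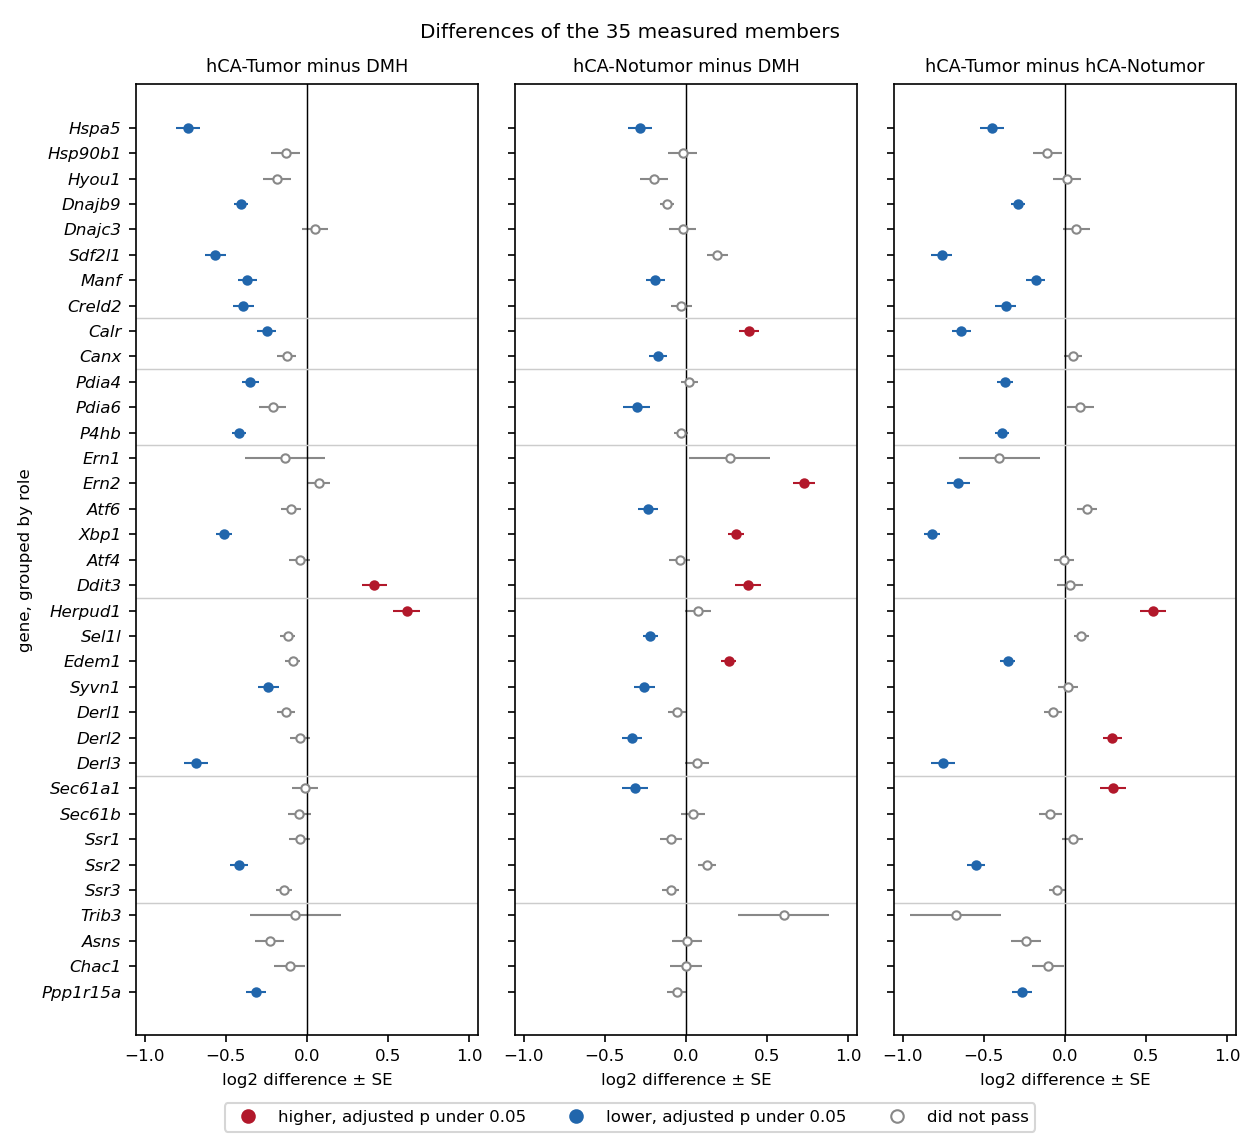
Log2 difference ± standard error of each member in 3 contrasts (3 arrays per group), with called differences filled and the others open. In hCA-Tumor minus DMH 13 members lie below 0 and 2 above among the filled points, and Calr and Xbp1 lie on opposite sides of 0 in the first and the middle panel.

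Of 8 measured chaperones and co-chaperones 5 were lower in hCA-Tumor mucosa than in DMH, the same 5 were lower than in hCA-Notumor mucosa, and 0 were higher in either contrast. Of all features 15.9% and 20.6% were lower and 21% and 27% higher in these contrasts. Medians over the 8 were -0.38 for hCA-Tumor minus DMH, -0.07 for hCA-Notumor minus DMH and -0.23 for hCA-Tumor minus hCA-Notumor, beside 0.08, 0.07 and 0.00 over all features. Hspa5 encodes BiP, the Hsp70 chaperone that binds nascent chains and holds the stress sensors inactive. Its scaled level was 4.60, 4.56 and 4.38 on the hCA-Tumor arrays, 5.01, 4.91 and 4.96 on the hCA-Notumor arrays and 5.16, 5.26 and 5.31 on the DMH arrays. The 3 groups did not overlap, with hCA-Tumor lowest and DMH highest. In hCA-Tumor mucosa Hspa5 stood at 60.3% of DMH (-0.73 ± 0.07, adjusted p = 0.000482, and -0.71 with the slide block, adjusted p = 0.000942). Against hCA-Notumor mucosa the difference was -0.45 ± 0.07 (adjusted p = 0.00216, block -0.51, adjusted p = 0.011). In hCA-Notumor mucosa it was -0.28 ± 0.07 against DMH (adjusted p = 0.0215), a call that ended with the block (-0.20, adjusted p = 0.0732) and without hCA-Notumor replicate 2 or 3 or DMH replicate 2 or 3 (adjusted p = 0.0687, 0.0634, 0.0684 and 0.0766).

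Sdf2l1, an ER-lumen protein that works with J-domain co-chaperones of BiP, had the largest difference of the chaperones between the high calcium groups. It had scaled levels of 2.07, 2.04 and 1.97 on the hCA-Tumor arrays, 2.87, 2.71 and 2.78 on the hCA-Notumor arrays and 2.69, 2.53 and 2.56 on the DMH arrays. All hCA-Tumor values lay below all others, and the hCA-Notumor values lay above those of DMH. It stood at 59.1% of hCA-Notumor (-0.76 ± 0.06, adjusted p = 0.000131, block -0.59) and at 67.6% of DMH (-0.57 ± 0.06, adjusted p = 0.000701, block -0.49). Its hCA-Notumor minus DMH difference of 0.19 did not pass (adjusted p = 0.0515), but did without hCA-Tumor replicate 3 (adjusted p = 0.0473) or DMH replicate 1 (0.24, adjusted p = 0.0224). Dnajb9 encodes ERdj4, a J-domain co-chaperone of BiP induced through XBP1. Its values were 1.48, 1.48 and 1.50 on the hCA-Tumor arrays, 1.83, 1.77 and 1.73 on the hCA-Notumor arrays and 1.88, 1.90 and 1.89 on the DMH arrays, so that the 3 groups were separate and the arrays within a group lay close. It was lower in hCA-Tumor than in DMH (-0.41 ± 0.04, adjusted p = 0.0005, block -0.42) and than in hCA-Notumor (-0.29 ± 0.04, adjusted p = 0.00119, block -0.31), while hCA-Notumor minus DMH gave -0.12 (adjusted p = 0.0645).

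Manf and Creld2 encode small stress-inducible proteins of the ER, of which MANF binds BiP and can be secreted. Manf measured 3.18, 3.15 and 3.08 on the hCA-Tumor arrays, 3.33, 3.29 and 3.33 on the hCA-Notumor arrays and 3.40, 3.52 and 3.59 on the DMH arrays. Its groups stood in the same order as for Hspa5 and did not overlap. It differed by -0.37 ± 0.06 from DMH in hCA-Tumor mucosa (adjusted p = 0.0027, block -0.39). Its differences of -0.19 for hCA-Notumor minus DMH (adjusted p = 0.0414) and -0.18 for hCA-Tumor minus hCA-Notumor (adjusted p = 0.0386) lay close to the threshold. The first ended without any 1 of hCA-Tumor replicates 1 and 2, the 3 hCA-Notumor replicates and DMH replicates 2 and 3 (adjusted p = 0.0598 to 0.13) and with the block (-0.09). The other ended without any 1 of the 6 high calcium arrays or DMH replicate 2 (adjusted p = 0.0579 to 0.1). Creld2 measured 3.20, 3.18 and 3.16 on the hCA-Tumor arrays, 3.59, 3.44 and 3.60 on the hCA-Notumor arrays and 3.67, 3.51 and 3.54 on the DMH arrays. Here hCA-Tumor lay below the other groups, which overlapped. Its differences were -0.39 ± 0.06 for hCA-Tumor minus DMH (adjusted p = 0.00305, block -0.34) and -0.36 ± 0.06 for hCA-Tumor minus hCA-Notumor (adjusted p = 0.00296), of which the last did not pass with the block (-0.22, adjusted p = 0.176).

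The other luminal chaperones gave no call in any contrast with their brightest probes, but dimmer probes of Hsp90b1 and Dnajc3 were called. They were Hsp90b1, which encodes the Hsp90 chaperone GRP94, Hyou1, the nucleotide exchange factor GRP170 of BiP, and Dnajc3, a J-domain protein that also restrains eIF2α kinases. With the brightest probes their differences ran from -0.20 (Hyou1, hCA-Notumor minus DMH, adjusted p = 0.108) to 0.07 (Dnajc3, hCA-Tumor minus hCA-Notumor, adjusted p = 0.521). Hspa5 and Hsp90b1 both hold ERSE and are both classical targets of ATF6, and the difference between these genes was not tested. The dimmer probe of Hsp90b1 gave -0.62 for hCA-Tumor minus DMH (adjusted p = 0.000317), 0.74 for hCA-Notumor minus DMH (adjusted p = 0.000117) and -1.36 for hCA-Tumor minus hCA-Notumor (adjusted p = 9.06e-06), where its brightest gave -0.13, -0.02 and -0.11. Of 3 dimmer probes of Dnajc3, 2 were called lower for hCA-Tumor minus DMH (-0.45 and -0.43, adjusted p = 0.00145 and 0.00135) and for hCA-Tumor minus hCA-Notumor (-0.62 and -0.46, adjusted p = 0.000198 and 0.000644).

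Plasma cell and B cell markers moved in the same samples as the chaperones. Of 11 such markers 9 were lower in hCA-Tumor than in DMH (median difference -0.47) and 7 lower than in hCA-Notumor (median -0.52), with 0 higher in either contrast. Of all features 15.9% and 20.6% were lower and 21% and 27% higher there. Their summed level, in units of each array's 75th percentile, ran from 60.8 to 74.6 on the hCA-Tumor arrays, 90.9 to 95.3 on the hCA-Notumor arrays and 92.5 to 96.5 on the DMH arrays. Largest among them in hCA-Tumor minus DMH were Cd79a of the B cell receptor (-0.90 ± 0.07), Mzb1, a plasma cell ER co-chaperone (-0.84 ± 0.08), the B cell antigen Ms4a1 (-0.69 ± 0.13) and the plasma cell marker Sdc1 (-0.66 ± 0.08), with block values of -0.86, -0.75, -0.70 and -0.55. All 11 markers were well above background on every array, and the part of this list in the lower chaperone levels was not tested.

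**Figure D4:**
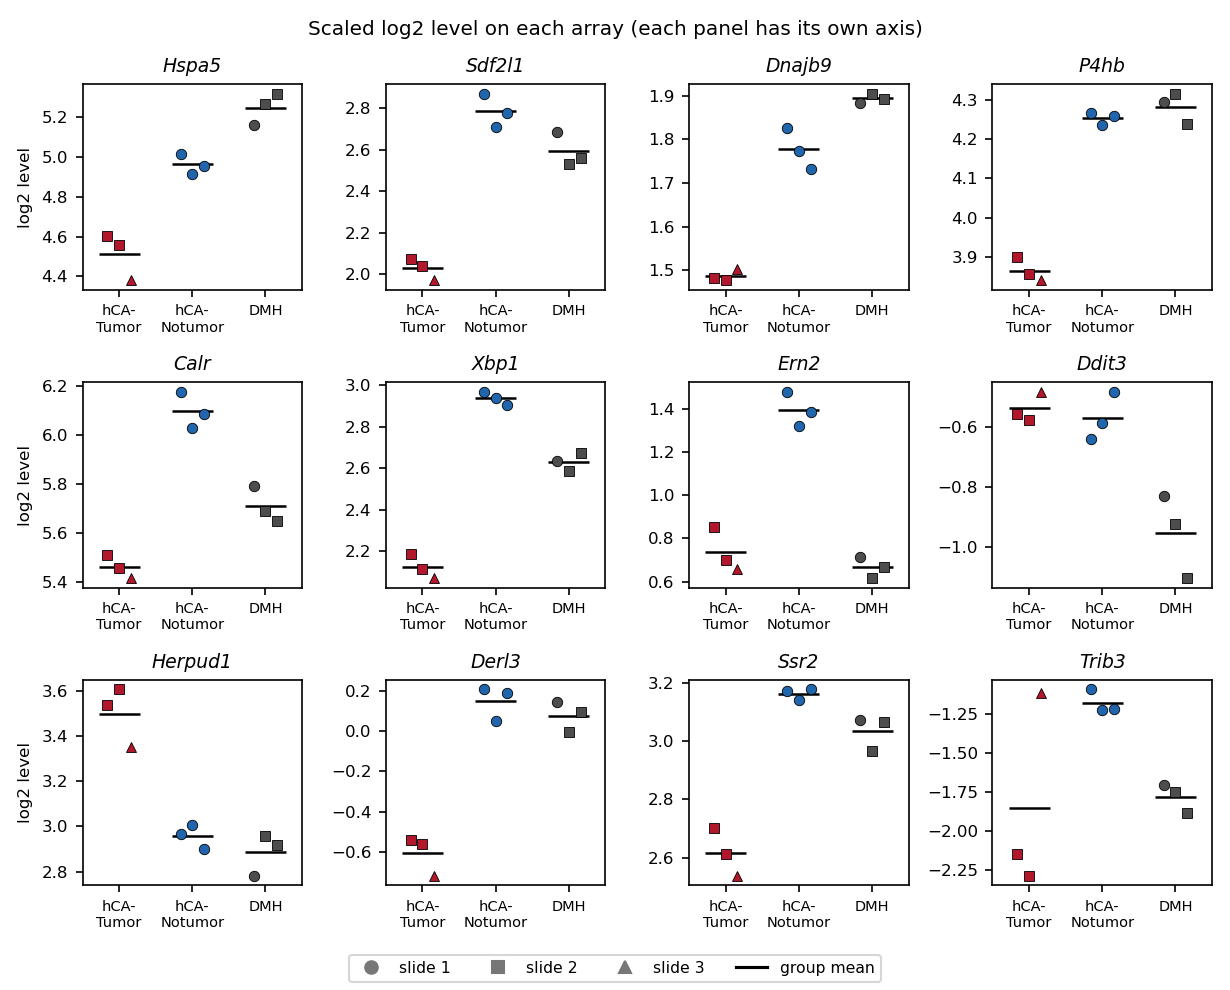
Scaled log2 level of 12 members on each array (points, shaped by slide) with the group mean as a bar; each panel has its own axis. The 3 hCA-Tumor points lie below all others for Hspa5, Sdf2l1, Dnajb9, P4hb, Calr, Xbp1, Derl3 and Ssr2 and above all others for Herpud1, and the hCA-Tumor 3 point of Trib3 lies at the height of the hCA-Notumor points.

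Of the lectin chaperones, which hold glycoproteins by their trimmed sugars, calreticulin moved in opposite directions in the high calcium groups. Calr, the soluble and calcium-binding form, measured 5.51, 5.46 and 5.41 on the hCA-Tumor arrays, 6.18, 6.03 and 6.09 on the hCA-Notumor arrays and 5.79, 5.69 and 5.65 on the DMH arrays. The groups did not overlap, with hCA-Tumor lowest and hCA-Notumor highest. Calr stood at 64.3% of hCA-Notumor in hCA-Tumor mucosa (-0.64 ± 0.06, adjusted p = 0.000205, block -0.49, adjusted p = 0.018). In hCA-Notumor mucosa it stood at 131% of DMH (0.39 ± 0.06, adjusted p = 0.00257, block 0.31, adjusted p = 0.031, but 0.0962 within slide 1). The smaller difference of -0.25 ± 0.06 for hCA-Tumor minus DMH (adjusted p = 0.0157) did not pass with the block (-0.19, adjusted p = 0.0624) or with normexp background correction (adjusted p = 0.0612).

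Canx, the membrane-bound form, measured 3.77, 3.80 and 3.64 on the hCA-Tumor arrays, 3.63, 3.73 and 3.71 on the hCA-Notumor arrays and 3.90, 3.85 and 3.85 on the DMH arrays. The DMH values lay above those of both high calcium groups, which overlapped each other. With this probe, the brightest, hCA-Notumor minus DMH alone was called (-0.17 ± 0.06, adjusted p = 0.0474), and it ended without each array in turn except hCA-Tumor replicate 3 (adjusted p = 0.0584 to 0.142) and with the block (-0.21, adjusted p = 0.0533). For hCA-Tumor minus DMH it gave -0.13 (adjusted p = 0.124). Both dimmer probes of Canx were called lower in that contrast (-0.35 and -0.62, adjusted p = 0.00677 and 0.00124), neither was called for hCA-Notumor minus DMH, and 1 was called for hCA-Tumor minus hCA-Notumor (-0.56, adjusted p = 0.00129).

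Of 3 measured disulfide isomerases, enzymes that form and exchange disulfide bonds, 2 were lower in hCA-Tumor mucosa than in both other groups, as were 9.54% of all features. Medians over the 3 were -0.35 for hCA-Tumor minus DMH, -0.03 for hCA-Notumor minus DMH and -0.37 for hCA-Tumor minus hCA-Notumor. P4hb, which encodes the founding protein disulfide isomerase, measured 3.90, 3.86 and 3.84 on the hCA-Tumor arrays, 4.27, 4.24 and 4.26 on the hCA-Notumor arrays and 4.30, 4.32 and 4.24 on the DMH arrays. The hCA-Tumor arrays lay apart and the other 6 overlapped. It stood at 74.9% of DMH (-0.42 ± 0.04, adjusted p = 0.000489, block -0.40) and 76.4% of hCA-Notumor (-0.39 ± 0.04, adjusted p = 0.000355, block -0.36). Pdia4, a larger family member found in BiP complexes, measured 3.32, 3.32 and 3.26 on the hCA-Tumor arrays, 3.73, 3.63 and 3.64 on the hCA-Notumor arrays and 3.70, 3.63 and 3.61 on the DMH arrays, with hCA-Tumor below the other groups, which overlapped. It differed by -0.35 ± 0.05 from DMH (adjusted p = 0.00178, block -0.30) and by -0.37 ± 0.05 from hCA-Notumor (adjusted p = 0.000939), and only the first passed with the block (the second was -0.26, adjusted p = 0.0575).

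Pdia6, an isomerase that also acts on IRE1, gave another order with its brightest probe, with DMH highest. Its levels by that probe were 4.55, 4.56 and 4.35 on the hCA-Tumor arrays, 4.48, 4.26 and 4.43 on the hCA-Notumor arrays and 4.64, 4.68 and 4.77 on the DMH arrays. The high calcium groups overlapped each other and lay below DMH. Its call for hCA-Notumor minus DMH (-0.30 ± 0.08, adjusted p = 0.0257) ended with the block (-0.25, adjusted p = 0.112) and without hCA-Notumor replicate 2 or 3 or DMH replicate 2 or 3 (adjusted p = 0.0577 to 0.0882). Both dimmer probes of Pdia6 put hCA-Tumor lowest, with -0.58 and -0.93 from DMH (adjusted p = 0.000935 and 0.000147) and -0.32 and -1.15 from hCA-Notumor (adjusted p = 0.00808 and 2.28e-05). For hCA-Notumor minus DMH they had opposite signs (-0.25 and 0.22, adjusted p = 0.0301 and 0.0374).

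Among the sensors and transcription factors Xbp1 fell and Ddit3 rose in hCA-Tumor mucosa, while Ern2, Xbp1 and Ddit3 rose and Atf6 fell in hCA-Notumor mucosa, relative to DMH. Medians over the 6 were -0.07 for hCA-Tumor minus DMH, 0.29 for hCA-Notumor minus DMH and -0.21 for hCA-Tumor minus hCA-Notumor. Xbp1 encodes the transcription factor whose mRNA is spliced by IRE1. Its 1 probe measured 2.18, 2.11 and 2.07 on the hCA-Tumor arrays, 2.97, 2.94 and 2.91 on the hCA-Notumor arrays and 2.64, 2.59 and 2.67 on the DMH arrays, and spliced and unspliced mRNA were not told apart. The 3 groups did not overlap and stood in the order hCA-Tumor, DMH, hCA-Notumor. Between the high calcium groups Xbp1 had the largest difference of the called members, at 56.7% of hCA-Notumor (-0.82 ± 0.05, adjusted p = 3.43e-05, block -0.79, adjusted p = 0.00403). It stood at 70.2% of DMH in hCA-Tumor mucosa (-0.51 ± 0.05, adjusted p = 0.000405, block -0.48) and at 124% of DMH in hCA-Notumor mucosa (0.31 ± 0.05, adjusted p = 0.00277, block 0.30, adjusted p = 0.0212). The last call was not made within slide 1 (adjusted p = 0.0632) or with normexp correction (0.21, adjusted p = 0.0687).

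Ern2, the epithelial sensor IRE1β, was higher without tumors than in both other groups. It measured 0.85, 0.70 and 0.66 on the hCA-Tumor arrays, 1.48, 1.32 and 1.39 on the hCA-Notumor arrays and 0.71, 0.62 and 0.67 on the DMH arrays. The hCA-Notumor arrays lay apart, while the hCA-Tumor and DMH arrays overlapped. In hCA-Notumor mucosa it stood at 166% of DMH (0.73 ± 0.07, adjusted p = 0.000265, block 0.68, adjusted p = 0.005). Within slide 1 DMH is a single array, so the adjusted p of 0.0211 there rests on the scatter of the hCA-Notumor arrays. In hCA-Tumor mucosa it stood at 63.4% of hCA-Notumor (-0.66 ± 0.07, adjusted p = 0.0003, block -0.55) and differed by 0.07 ± 0.07 from DMH (adjusted p = 0.469). Ern1, the ubiquitous IRE1α, gave no call. Its values were -2.96, -3.06 and -2.23 on the hCA-Tumor arrays, -2.25, -2.47 and -2.31 on the hCA-Notumor arrays and -2.23, -2.72 and -2.88 on the DMH arrays, with hCA-Tumor replicate 3 apart from its group, and without that array hCA-Tumor minus hCA-Notumor passed at -0.66 (adjusted p = 0.0211) in place of -0.40 ± 0.25 (adjusted p = 0.22).

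Goblet cell markers moved as well, with their highest summed level on the hCA-Notumor arrays. Of 9 measured goblet markers 6 were higher and 0 lower in hCA-Notumor than in DMH (median 0.49), and 5 were lower and 1 higher in hCA-Tumor than in hCA-Notumor (median -0.43). In hCA-Tumor minus DMH 4 were higher and 4 lower. Of all features 18.4%, 27% and 21% were higher and 17.3%, 20.6% and 15.9% lower in these contrasts, in the order given. Their summed level ran from 1165 to 1411 on the hCA-Tumor arrays, 1621 to 1726 on the hCA-Notumor arrays and 1140 to 1215 on the DMH arrays. All 9 were well above background on every array. Largest between the high calcium groups were the secreted defence protein Retnlb (-3.69 ± 0.42), the secretory lineage factors Atoh1 (-1.39 ± 0.09) and Spdef (-0.92 ± 0.10) and the mucus protein Clca1 (-0.80 ± 0.06), with block values of -3.19, -1.23, -0.68 and -0.71. The part of the goblet markers in the levels of Ern2 and Xbp1 was not tested.

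Ddit3, which encodes the stress factor CHOP, was higher in both high calcium groups. It measured -0.56, -0.58 and -0.48 on the hCA-Tumor arrays, -0.64, -0.59 and -0.48 on the hCA-Notumor arrays and -0.83, -0.92 and -1.10 on the DMH arrays. Both high calcium groups lay above DMH and overlapped each other. The differences were 0.42 ± 0.08 for hCA-Tumor minus DMH (adjusted p = 0.00583, block 0.45) and 0.38 ± 0.08 for hCA-Notumor minus DMH (adjusted p = 0.0088), the second not passing with the block (0.26, adjusted p = 0.0968). Atf6, the sensor that is cut in the Golgi to free a transcription factor, measured 0.32, 0.32 and 0.23 on the hCA-Tumor arrays, 0.09, 0.22 and 0.16 on the hCA-Notumor arrays and 0.44, 0.43 and 0.30 on the DMH arrays. The hCA-Notumor arrays lay below the others, and hCA-Tumor and DMH overlapped. Its call for hCA-Notumor minus DMH (-0.23 ± 0.06, adjusted p = 0.0215) ended with the block (-0.28, adjusted p = 0.0504) and without hCA-Notumor replicate 1 or 3 or DMH replicate 2 (adjusted p = 0.0733, 0.06 and 0.0753). Atf4, the factor translated when eIF2α is phosphorylated, differed by -0.04, -0.04 and -0.01 in the same 3 contrasts and gave no call.

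The 7 degradation genes went different ways, with 2 lower and 1 higher in hCA-Tumor than in DMH, 3 lower and 1 higher in hCA-Notumor than in DMH, and 2 lower and 2 higher in hCA-Tumor than in hCA-Notumor. Over all features 15.9%, 17.3% and 20.6% were lower and 21%, 18.4% and 27% higher in these contrasts, so most of these counts lie close to the background, and with the block 1, 2 and 2 were lower and 1, 1 and 2 higher. Their medians were -0.12, -0.06 and 0.02. Herpud1, whose product Herp brings ubiquitin ligase complexes together at the ER membrane, was the member that rose most in hCA-Tumor mucosa. It measured 3.54, 3.61 and 3.35 on the hCA-Tumor arrays, 2.97, 3.01 and 2.90 on the hCA-Notumor arrays and 2.78, 2.96 and 2.92 on the DMH arrays. The hCA-Tumor arrays lay above all others. It stood at 153% of DMH (0.61 ± 0.08, adjusted p = 0.00119, block 0.63) and at 146% of hCA-Notumor (0.54 ± 0.08, adjusted p = 0.00136, block 0.46). Hspa5 and Herpud1 are both known targets of the stress response and moved in opposite directions in hCA-Tumor mucosa. The printed promoter of Hspa5 holds ERSE, and that of Herpud1 holds ERSE-II and CARE. Whether these elements bear on the levels was not tested.

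Derl3, a derlin that moves misfolded proteins across the membrane and is high in secretory cells, showed the opposite. Its scaled levels were -0.54, -0.56 and -0.72 on the hCA-Tumor arrays, 0.21, 0.05 and 0.19 on the hCA-Notumor arrays and 0.14, 0.00 and 0.09 on the DMH arrays. The hCA-Tumor arrays lay below the other 6, which overlapped. It stood at 62.3% of DMH (-0.68 ± 0.07, adjusted p = 0.000578, block -0.59) and at 59.3% of hCA-Notumor (-0.75 ± 0.07, adjusted p = 0.000226, block -0.60). The related derlin Derl2 measured 3.29, 3.27 and 3.19 on the hCA-Tumor arrays, 2.94, 2.89 and 3.06 on the hCA-Notumor arrays and 3.34, 3.30 and 3.25 on the DMH arrays, with hCA-Notumor below the other groups. It differed by -0.33 ± 0.06 between hCA-Notumor and DMH (adjusted p = 0.00478, block -0.38) and by 0.29 ± 0.06 between hCA-Tumor and hCA-Notumor (adjusted p = 0.00582, block 0.39). The first of these did not pass within slide 1 (adjusted p = 0.0727). Derl1, the third derlin, gave no call with its brightest probe and differed by -0.13 for hCA-Tumor minus DMH (adjusted p = 0.103). The dimmest of its 4 kept probes was called lower there (-0.26, adjusted p = 0.0101) and for hCA-Tumor minus hCA-Notumor (-0.33, adjusted p = 0.00238), and the other two were not.

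Edem1, which marks misfolded glycoproteins by mannose trimming, was higher without tumors. It measured 2.73, 2.70 and 2.77 on the hCA-Tumor arrays, 3.08, 3.08 and 3.10 on the hCA-Notumor arrays and 2.88, 2.76 and 2.83 on the DMH arrays, so that hCA-Notumor lay above both other groups, which overlapped. The differences were 0.26 ± 0.05 for hCA-Notumor minus DMH (adjusted p = 0.00414, block 0.21, adjusted p = 0.0409, but 0.117 within slide 1) and -0.35 ± 0.05 for hCA-Tumor minus hCA-Notumor (adjusted p = 0.000794, block -0.29). Its product acts upstream of the ubiquitin ligase of ERAD, whose genes moved otherwise. Syvn1, the ligase HRD1, measured 3.21, 3.23 and 3.21 on the hCA-Tumor arrays, 3.24, 3.11 and 3.24 on the hCA-Notumor arrays and 3.56, 3.42 and 3.37 on the DMH arrays, with DMH above both high calcium groups. Its differences from DMH were -0.24 ± 0.06 in hCA-Tumor (adjusted p = 0.0225, block -0.18, adjusted p = 0.0621) and -0.26 ± 0.06 in hCA-Notumor mucosa (adjusted p = 0.0181, block -0.37, adjusted p = 0.0158). These calls lay near the threshold, the first ending without hCA-Tumor replicate 1 or 2 (adjusted p = 0.0652 and 0.0566) and the second without hCA-Notumor replicate 2 (adjusted p = 0.0572). Sel1l, the membrane adaptor of HRD1, measured 0.57, 0.46 and 0.55 on the hCA-Tumor arrays, 0.46, 0.42 and 0.39 on the hCA-Notumor arrays and 0.65, 0.63 and 0.66 on the DMH arrays, with DMH above both high calcium groups. By this brighter probe it was called for hCA-Notumor minus DMH alone (-0.22 ± 0.05, adjusted p = 0.00888), and not with the block (-0.22, adjusted p = 0.0541). Its dimmer probe was called lower for hCA-Tumor minus DMH (-0.57, adjusted p = 0.00372) and hCA-Tumor minus hCA-Notumor (-0.77, adjusted p = 0.000628), and gave 0.20 for hCA-Notumor minus DMH (adjusted p = 0.156).

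At the translocon, Ssr2 and Sec61a1 changed, and Sec61b, a small subunit of the channel, Ssr1 and Ssr3 gave no call with their brightest probes. Medians over the 5 were -0.05 for hCA-Tumor minus DMH, -0.09 for hCA-Notumor minus DMH and -0.05 for hCA-Tumor minus hCA-Notumor. Ssr2 encodes the β subunit of the translocon-associated TRAP complex. It measured 2.70, 2.61 and 2.54 on the hCA-Tumor arrays, 3.17, 3.14 and 3.18 on the hCA-Notumor arrays and 3.07, 2.97 and 3.07 on the DMH arrays. The hCA-Tumor arrays lay below all others, and those of hCA-Notumor lay above DMH. Ssr2 differed by -0.42 ± 0.06 from DMH (adjusted p = 0.00135, block -0.36) and by -0.55 ± 0.06 from hCA-Notumor (adjusted p = 0.000288, block -0.45). The other TRAP subunits measured, Ssr1 and Ssr3, differed by -0.04 and -0.14 from DMH in hCA-Tumor mucosa (adjusted p = 0.656 and 0.0586). Both dimmer probes of Ssr3 were called lower there (-0.41 and -0.61, adjusted p = 0.00632 and 0.00165) and for hCA-Tumor minus hCA-Notumor (-0.27 and -0.65, adjusted p = 0.0259 and 0.000748). Of 4 dimmer probes of Ssr1, 1 was called lower in both of these contrasts (-0.47 and -0.23, adjusted p = 0.00367 and 0.0454), and another for hCA-Notumor minus DMH (-0.35, adjusted p = 0.022). Sec61a1, the pore subunit of the channel, measured 4.95, 4.93 and 4.80 on the hCA-Tumor arrays, 4.61, 4.53 and 4.65 on the hCA-Notumor arrays and 4.76, 4.95 and 5.02 on the DMH arrays, with hCA-Notumor below both other groups. Its calls of -0.31 ± 0.08 for hCA-Notumor minus DMH (adjusted p = 0.0204) and 0.30 ± 0.08 for hCA-Tumor minus hCA-Notumor (adjusted p = 0.0181) ended with the block (-0.16 and 0.12, adjusted p = 0.143 and 0.371). The first also ended without hCA-Notumor replicate 1 or 2 or DMH replicate 2 or 3 (adjusted p = 0.0556 to 0.0695), and the second without hCA-Tumor replicate 1 or 2 or hCA-Notumor replicate 2 (adjusted p = 0.0588 to 0.0622). The second brightest probe of Sec61a1 was called with the opposite sign between the high calcium groups (-0.58, adjusted p = 0.000407) and was lower in hCA-Tumor than in DMH (-0.48, adjusted p = 0.00159), where the brightest gave -0.01. The direction of Sec61a1 in hCA-Tumor mucosa therefore depends on the probe.

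Of 4 outputs of the eIF2α branch, Ppp1r15a was called. With the block, where hCA-Tumor replicate 3 does not enter the differences, Ppp1r15a, Trib3 and Asns were lower in hCA-Tumor than in DMH. Medians over the 4 were -0.17 for hCA-Tumor minus DMH, 0.00 for hCA-Notumor minus DMH and -0.25 for hCA-Tumor minus hCA-Notumor. Ppp1r15a encodes GADD34, which brings a phosphatase to eIF2α and restores translation. It measured -1.33, -1.31 and -1.47 on the hCA-Tumor arrays, -1.12, -1.04 and -1.16 on the hCA-Notumor arrays and -1.10, -1.05 and -1.01 on the DMH arrays, with hCA-Tumor below the other groups. The differences were -0.32 ± 0.06 from DMH (adjusted p = 0.00615, block -0.29) and -0.26 ± 0.06 from hCA-Notumor (adjusted p = 0.01), the second not passing with the block (adjusted p = 0.0592) and the first not with normexp correction (-0.24, adjusted p = 0.0863).

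Trib3, a pseudokinase induced by ATF4 and CHOP, turned on 1 array. It measured -2.15, -2.29 and -1.11 on the hCA-Tumor arrays, -1.09, -1.22 and -1.22 on the hCA-Notumor arrays and -1.70, -1.75 and -1.88 on the DMH arrays. Replicate 3 of hCA-Tumor, alone on slide 3, lay with the hCA-Notumor arrays, and replicates 1 and 2 lay below all others. With that array no contrast was called, and hCA-Tumor minus hCA-Notumor was -0.67 ± 0.28 (adjusted p = 0.0852). Without it hCA-Tumor was -1.04 against hCA-Notumor (adjusted p = 0.000204) and -0.44 against DMH (adjusted p = 0.00722), and hCA-Notumor was 0.60 against DMH (adjusted p = 0.0012). With slide as a block these differences were -0.93, -0.40 and 0.53 (adjusted p = 0.00697, 0.0133 and 0.0135). The block also keeps hCA-Tumor replicate 3 out of the differences, since it is alone on its slide, so this is not a separate check. All these values are from the brighter of 2 probes. On all 9 arrays the dimmer probe was called with the opposite sign for hCA-Notumor minus DMH (-0.63, adjusted p = 0.00104). It was also called so for hCA-Tumor minus hCA-Notumor (0.84, adjusted p = 0.00017). For hCA-Tumor minus DMH it gave 0.21 (adjusted p = 0.081). Asns, the asparagine synthetase raised by ATF4, differed by -0.23 ± 0.09 from DMH in hCA-Tumor mucosa (adjusted p = 0.0886) and by -0.24 ± 0.09 from hCA-Notumor (adjusted p = 0.0666). Without hCA-Tumor replicate 3 these passed at -0.29 (adjusted p = 0.0486) and -0.30 (adjusted p = 0.0312), and the second also without DMH replicate 1 (adjusted p = 0.0217). Chac1, which degrades glutathione, differed by -0.11, 0.00 and -0.11 in the 3 contrasts and gave no call.

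Probes of 1 gene did not always give 1 answer, as several members above show. For 16 of the 35 members several probes were kept, and the brightest stood for the gene above. Between the high calcium groups the dimmest probe of these 16 gave a lower difference than the brightest in 14 cases, with medians of -0.52 for the dimmest and 0.03 for the brightest. For hCA-Tumor minus DMH these medians were -0.50 and -0.12, and for hCA-Notumor minus DMH 0.14 and -0.11. Of the 29 dimmer probes 17 were lower and 2 higher between the high calcium groups, where 26.1% of all kept probes were lower and 24.8% higher, and 4 were lower and 5 higher in hCA-Notumor minus DMH, beside 16.4% and 21%. All kept probes include the brightest, so these shares are not those of dimmer probes alone. Over all 4602 genes with several kept probes the direction was the same, with 70.8% of dimmest probes below the brightest for hCA-Tumor minus hCA-Notumor and medians of -0.28 and 0.04. The gap between dimmest and brightest probe, centred on each gene's mean gap, had medians over the 16 members of -0.25, -0.25 and -0.22 on the hCA-Tumor arrays, 0.23, 0.19 and 0.20 on the hCA-Notumor arrays and -0.05, 0.03 and 0.03 on the DMH arrays. The 3 groups did not overlap in this gap among the arrays. DMH replicate 1, on slide 1, stood at -0.05 and the DMH arrays of slide 2 at 0.03. Why probes of a gene differed was not tested.

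Among single members, the dimmer probe of Calr gave -1.07 for hCA-Tumor minus hCA-Notumor, beside -0.64 for the brightest. All 3 probes of Edem1 (-0.35, -0.46 and -0.48), all 3 of Dnajb9 (-0.29, -0.44 and -0.86) and both of Derl2 (0.29 and 0.23) had 1 sign. The 2 probes of Trib3 gave -0.67 and 0.84, with opposite signs, and the dimmer one was called (adjusted p = 0.00017). For Hspa5, Sdf2l1, Manf, Creld2, Pdia4, P4hb, Ern2, Xbp1, Ddit3, Herpud1, Derl3, Ssr2 and Ppp1r15a 1 probe was named, so this comparison cannot be made for them.

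**Figure D5:**
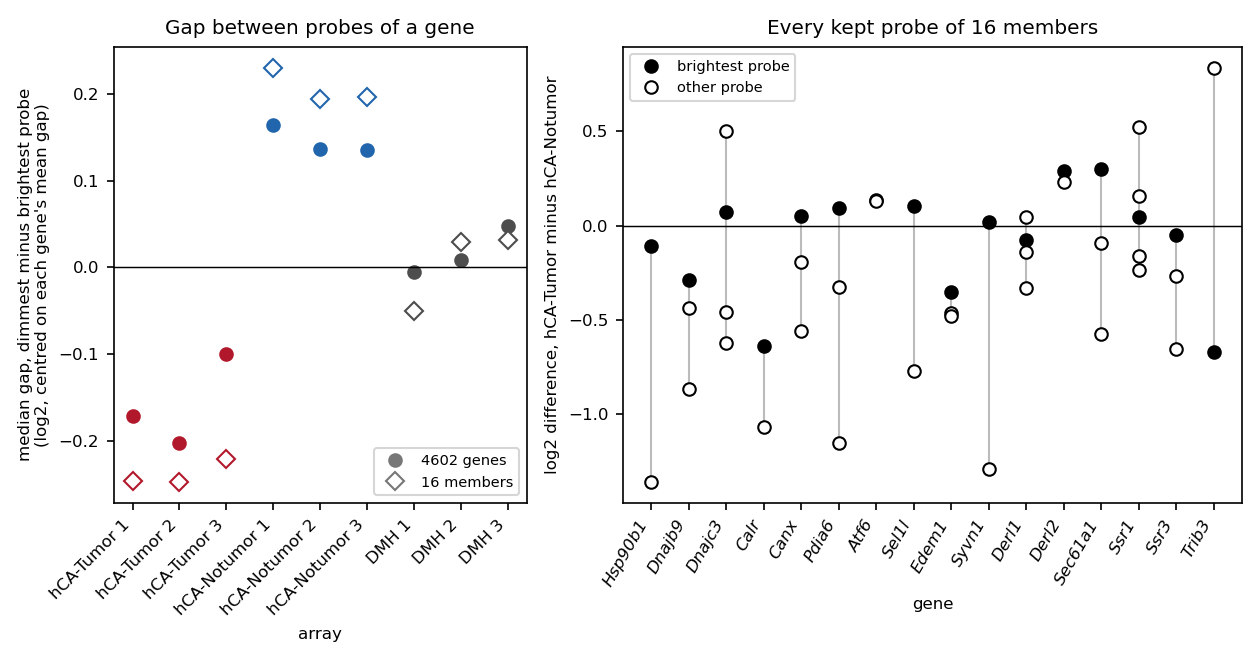
Left, median gap between the dimmest and the brightest kept probe of a gene on each array, in log2 units centred on each gene's mean gap, for 4602 genes (filled) and 16 members (open). Right, log2 difference hCA-Tumor minus hCA-Notumor of every kept probe of the 16 members; open points lie below the filled one for most genes, and Trib3, Derl1, Dnajc3 and Ssr1 have an open point above it.

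Other cell types also differed between the groups. Beside the counts of this and the next paragraph, 15.9% of all features were lower and 21% higher in hCA-Tumor minus DMH. In hCA-Notumor minus DMH 17.3% were lower and 18.4% higher, and in hCA-Tumor minus hCA-Notumor 20.6% and 27%. All 8 smooth muscle markers were higher in hCA-Tumor than in DMH (median 1.24, block median 1.46), 6 were higher in hCA-Notumor than in DMH and 2 higher in hCA-Tumor than in hCA-Notumor, with 0 lower. With the block 1 was higher in hCA-Notumor than in DMH (median 0.36, against 0.77 without it) and all 8 were higher in hCA-Tumor than in hCA-Notumor (median 1.02, against 0.45). Their summed level ran from 595 to 775 on the hCA-Tumor arrays, 420 to 522 on the hCA-Notumor arrays and 224 to 385 on the DMH arrays, with Synm (1.55), Cnn1 (1.36), Tagln (1.30) and Des (1.26) changed most in hCA-Tumor minus DMH. Fibroblast markers were higher in hCA-Tumor than in hCA-Notumor in 6 of 7 cases and lower in 0, among them Col1a1 (1.49) and Col3a1 (1.12). They summed to 159 to 168, 92.2 to 99.3 and 110 to 119 on the hCA-Tumor, hCA-Notumor and DMH arrays, with 5 higher and 1 lower in hCA-Tumor than in DMH and 0 higher and 3 lower in hCA-Notumor. Absorptive colonocyte markers summed to 476 to 672, 679 to 807 and 576 to 704 on the same arrays. Of these 10 markers 7 were lower and 0 higher in hCA-Tumor than in hCA-Notumor, among them Aqp4 (-3.09), Slc9a3 (-2.27) and Car4 (-1.76). Against DMH 6 were higher and 0 lower in hCA-Notumor, and 1 was higher and 3 lower in hCA-Tumor.

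Proliferation markers were lower than in DMH in 8 of 10 cases in each high calcium group, higher in hCA-Tumor than in hCA-Notumor in 5 cases and lower in 1, with sums of 26.3 to 28.3, 20.5 to 23.6 and 34.8 to 36.6 on the hCA-Tumor, hCA-Notumor and DMH arrays. Plk1 (0.98) and Aurka (0.76) led between the high calcium groups. Of 7 measured myeloid markers 6 were lower in hCA-Tumor and 5 in hCA-Notumor than in DMH with 0 higher, among them S100a9 (-2.64 and -3.57), and 2 were higher and 2 lower in hCA-Tumor than in hCA-Notumor. Their sums ran from 6.93 to 7.61, 8.12 to 9.01 and 11.2 to 11.5 on these arrays. Adipocyte markers were lower than in DMH for 6 of 7 in hCA-Tumor and 7 of 7 in hCA-Notumor, 1 was higher in hCA-Tumor than in hCA-Notumor (with the block 0 higher and 1 lower), and sums ran from 8.21 to 14.6, 4.69 to 8.13 and 38.1 to 41.9, with Adipoq (-4.45 and -6.06) among the largest. Of the 7 myeloid markers 6 were well above background on hCA-Tumor replicate 2 and on all hCA-Notumor arrays. Of the 7 adipocyte markers 5 were so on hCA-Tumor replicate 2 and hCA-Notumor replicate 1. The smooth muscle, fibroblast and proliferation markers were well above background on every array. The part of these lists in the levels of the members was not tested.

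Further genes of the pathway, 117 measured of 120 listed, moved in both directions. In hCA-Tumor minus DMH 36 were lower and 9 higher (median -0.11), in hCA-Notumor minus DMH 26 lower and 13 higher (median -0.04), and in hCA-Tumor minus hCA-Notumor 39 lower and 24 higher (median -0.03). With the block these counts were 33 and 17, 19 and 7, and 18 and 17. Of all features 15.9%, 17.3% and 20.6% were lower and 21%, 18.4% and 27% higher in these contrasts. The same shares stand beside the counts of each list below, and several of those counts lie near them. For both high calcium groups together 25 were lower and 7 higher than in DMH, where 13.8% of all features were lower and 17.8% higher.

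Targeting and translocation genes gave 6 lower and 1 higher of 18 in hCA-Tumor minus DMH. Srprb, the membrane subunit of the signal recognition particle receptor, differed by -0.78 ± 0.06 (adjusted p = 0.00016, block -0.73), Srpr, its partner, by -0.45 ± 0.05, and Srp68 of the particle itself by -0.37 ± 0.06. Sec61a2, a second pore subunit, rose by 0.59 ± 0.07, whereas Sec61a1 differed by -0.01. Between the high calcium groups 8 were lower and 3 higher, and against DMH 1 was lower and 1 higher in hCA-Notumor. In N-glycan transfer 4 of 11 were lower and 1 higher in hCA-Tumor than in DMH. These included the catalytic subunit Stt3a of oligosaccharyltransferase (-0.56 ± 0.07) and its subunits Ostc (-0.50 ± 0.06) and Dad1 (-0.29 ± 0.05). The list gave 4 lower and 1 higher in both other contrasts too. With the block 2 of its genes were lower and 0 higher between the high calcium groups, and 5 lower and 5 higher of the targeting and translocation genes.

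Other folding enzymes gave 5 lower and 3 higher of 21 in hCA-Tumor minus DMH. Uggt1, which returns misfolded glycoproteins to the lectin chaperones, differed by -0.51 ± 0.08, and the isomerase Txndc5 by -0.42 ± 0.07. The oxidase Ero1lb differed by -0.36 ± 0.07 and the prolyl isomerase Fkbp14 by 0.44 ± 0.08. Against DMH 2 were lower and 2 higher in hCA-Notumor, among them Pdia5 (0.39) and Agr2, an isomerase needed for mucin (0.37), and 7 were lower and 4 higher in hCA-Tumor than in hCA-Notumor. With the block the last counts were 1 and 2 (median 0.12, against 0.01 without it), and those of hCA-Tumor minus DMH were 3 and 3. In ERAD beyond the members 4 of 16 were lower and 0 higher in hCA-Tumor than in DMH (Vimp -0.36, Edem3 -0.35, Nploc4 -0.27 and Rnf5 -0.21). In hCA-Notumor 2 were lower and 1 higher, with Edem3 at -0.58, and between the high calcium groups 4 were lower and 4 higher, against 2 and 1 with the block. For hCA-Tumor minus DMH the block gave 3 lower and 2 higher in this list.

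Of 11 measured genes among other sensors and factors, 4 were lower and 1 higher in hCA-Tumor than in DMH. The stress-induced factor Atf3 differed by -0.81 ± 0.11, the ATF6 relative Atf6b by -0.45 ± 0.06 and Eif2s1, which encodes eIF2α, by -0.36 ± 0.05, while Atf5 differed by 0.55 ± 0.11. Creb3l1, a membrane-bound factor of secretory cells, was called in the same contrasts as Ern2 and also against DMH in hCA-Tumor, at -0.31 ± 0.09 for hCA-Tumor minus DMH, 1.00 ± 0.09 for hCA-Notumor minus DMH (block 0.90) and -1.31 ± 0.09 for hCA-Tumor minus hCA-Notumor (block -1.23). The list gave 2 lower and 2 higher in hCA-Notumor minus DMH and 4 lower and 4 higher between the high calcium groups.

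Amino acid and eIF2α-branch genes gave 9 lower and 3 higher of 26 in hCA-Tumor minus DMH, 11 lower and 2 higher in hCA-Notumor minus DMH, and 7 lower and 6 higher between the high calcium groups. With the block these counts were 10 and 6, 6 and 2, and 4 and 5. Over all features 15.9%, 17.3% and 20.6% were lower and 21%, 18.4% and 27% higher without the block. Stc2, a secreted stress protein, differed by 0.74 ± 0.06 in hCA-Tumor and -0.84 ± 0.06 in hCA-Notumor mucosa, and by 1.58 ± 0.06 between them (block 1.58). Ddit4, an inhibitor of mTOR signalling, differed by 0.68 ± 0.09 from DMH in hCA-Tumor and by 1.03 ± 0.09 from hCA-Notumor. Psat1 of serine synthesis was lower in both, at -0.56 and -0.54. Gars, a tRNA synthetase, gave -1.42 ± 0.47 for hCA-Notumor minus DMH (block -0.16, adjusted p = 0.197) and 1.37 ± 0.47 between the high calcium groups, where the block gave the opposite sign (-0.50, adjusted p = 0.0218).

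Transport between ER and Golgi, with 14 measured genes, gave 4 lower and 0 higher in hCA-Tumor minus DMH. Kdelr1, a receptor that returns escaped chaperones to the ER, was lower in both high calcium groups (-0.68 ± 0.09 and -0.71 ± 0.09). Its relatives Kdelr2 (0.45 ± 0.07) and Kdelr3 (0.52 ± 0.08) and the coat protein Sec13 (0.42 ± 0.06) were higher in hCA-Notumor than in DMH, where 4 genes were lower and 4 higher. Between the high calcium groups 5 were lower and 2 higher, Sec13 at -0.63, Kdelr3 at -0.62 and Kdelr2 at -0.55, of which Kdelr2 and Kdelr3 did not pass with the block (adjusted p = 0.0512 and 0.0501). For the whole list the block gave 1 lower and 3 higher in hCA-Notumor minus DMH, and 1 lower and 1 higher between the high calcium groups.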

How the data were processed

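RNA of colonic mucosa was measured on 9 one-colour Agilent arrays, 3 per group, labelled with Cy3 per the labels' protocols. The deposited scanner files hold an intensity per spot, the processed signal after background subtraction in Agilent Feature Extraction 10.5.1.1, per the submitters' processing notes and the file headers. The deposited table of the whole series holds log2 values, which equalled log2 processed signal minus the array median when set against the scanner files. It served as an alternative, with column medians of 2.36 to 2.80 over its 23726 probes.

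Here control spots were left out, intensity was divided by the 75th percentile of the array and log2 was taken. A probe was kept where every array of 1 or more groups had it well above background (27207 of 41174), and 25097 of 41174 probes were named by RefSeq accession, 16077 staying unnamed. The brightest kept probe stood for a gene, which left 21094 features. limma 3.58.1 in R 4.3.3 fitted all 9 arrays and 4 contrasts, with Benjamini-Hochberg adjustment over all features within each contrast and a threshold of 0.05. The fit was tested on simulated data with known changes. Replicate numbers were checked for pairing through correlations of deviations from the group means, which ran from -0.57 to 0.22 between arrays of the same number, so the numbers do not pair arrays. The number of arrays limits the precision.

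All 37 members are accounted for, with values on every array for those past the threshold in any contrast, and of each other list the counts and up to 4 genes with the largest differences past the threshold. The members, the pathway lists and the marker lists were chosen with earlier results of these data known. Motifs were counted in RefSeq promoters of build GRCm38.p6. Alternatives covered background correction, normalization, source of values, probe filters, the probe of a gene, slide and replicate blocks, the spread, the samples in the fit and arrays left out.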

Additional observations from a re-analysis of the deposited data

Results flagged for a closer look

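Calr and Xbp1 drew attention because both differences from DMH were called, with opposite signs in the high calcium groups, and the test between these groups passed. Sdf2l1, Pdia4, Derl3, Edem1 and Ssr2 also had opposite signs and passed between the high calcium groups, but were not called against DMH in both. For Calr, hCA-Tumor minus hCA-Notumor was -0.64 (limma adjusted p = 0.000205), with -0.25 from DMH in hCA-Tumor and 0.39 in hCA-Notumor, and all 3 arrays of each high calcium group lay on their own side of DMH. For Xbp1, hCA-Tumor minus hCA-Notumor was -0.82 (adjusted p = 3.43e-05), with -0.51 and 0.31 from DMH, again without overlap. With slide as a block the differences between the high calcium groups were -0.49 and -0.79 (adjusted p = 0.018 and 0.00403). The call of Calr for hCA-Tumor minus DMH did not pass with the block or with normexp correction. That of Xbp1 for hCA-Notumor minus DMH did not pass with normexp correction. No slide carried both of these groups, so the blocked values join them through the DMH arrays, on slide 1 through DMH replicate 1 alone.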

How the results depend on the processing

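Called in hCA-Tumor minus DMH under every alternative run were Hspa5, Dnajb9, Sdf2l1, P4hb, Xbp1 and Derl3, in hCA-Notumor minus DMH Ern2, and in hCA-Tumor minus hCA-Notumor Sdf2l1, Calr, Ern2, Xbp1, Herpud1 and Derl3. Of these, Hspa5, Sdf2l1, P4hb, Xbp1, Derl3, Ern2 and Herpud1 had 1 kept probe. Taking the mean of probes or the dimmest probe could not change their differences. All measured members were well above background on all 9 arrays, so the probe filters also left the differences unchanged. The causes of the changes below were not tested. The authors' table, which holds fewer features, gave 6 members lower and 0 higher (median -0.26) for hCA-Tumor minus DMH, 0 and 1 (median -0.22) for hCA-Notumor minus DMH, 1 and 0 (median -0.30) for their mean minus DMH, and 6 and 1 (median -0.048) for hCA-Tumor minus hCA-Notumor. It shifts the median of all features to -0.06, -0.14, -0.11 and 0.09, against 0.08, 0.07, 0.07 and 0.00 with the 75th percentile, and the share of calls that were higher to 39.5%, 29.3%, 30.3% and 63.0%, against 56.9%, 51.5%, 56.5% and 56.7%. Of its 18458 features 2403, 3339, 2144 and 4783 were called, against 7793, 7533, 6663 and 10028 of 21094 as reported.

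For hCA-Notumor minus DMH the lower calls were 9 as reported. They were 3 with normexp correction, 2 without a filter on dim probes, 4 with the mean of a gene's probes and 2 with slide as a block. With the dimmest probe, an alternative chosen after seeing the data, they were 4. Calls over all features, 7533 as reported, were 3853, 5768, 7541, 5636 and 7436 in these settings, in the order given. The 5 higher calls were 9 with array weights and 8 without both DMH replicate 1 and hCA-Tumor replicate 3. Over all features 13189 and 12618 were called in these 2 settings. For the mean of both groups minus DMH the 14 lower calls were 5 with normexp correction and 6 without the filter. Calls over all features were 6663 as reported and 3207 and 4928 in these settings. With the replicate block the lower and higher calls were 13 and 2 (hCA-Tumor minus DMH), 4 and 6 (hCA-Notumor minus DMH), 10 and 3 (their mean) and 13 and 3 (hCA-Tumor minus hCA-Notumor). Over all features the replicate block called 6437, 5965, 5190 and 8836 in these contrasts, against 7793, 7533, 6663 and 10028 as reported. Leaving out each array in turn gave 12 to 15 lower in hCA-Tumor minus DMH, 3 to 9 lower and 5 to 7 higher in hCA-Notumor minus DMH, 7 to 12 lower in their mean and 13 to 16 lower in hCA-Tumor minus hCA-Notumor. Calls over all features then ran from 5974 to 8052, 5293 to 9427, 4320 to 7474 and 8272 to 12265 in these contrasts. Its smallest counts of lower calls came without hCA-Notumor replicate 2 or DMH replicate 2 (3 in hCA-Notumor minus DMH) and without DMH replicate 3 (7 in the mean).

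The members' median for hCA-Tumor minus DMH was -0.19 with quantile normalization, -0.32 with the mean of probes and -0.35 with the dimmest probe. For hCA-Notumor minus DMH it was 0.045 with the dimmest probe, and for the mean of both groups -0.10 with array weights and -0.11 without DMH replicate 1 and hCA-Tumor replicate 3. For hCA-Tumor minus hCA-Notumor it was -0.16 with normexp correction, -0.32 with the mean of probes, -0.16 with array weights, -0.15 without those 2 arrays, -0.39 with the dimmest probe and -0.18 to -0.11 with 1 array left out.

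Signs turned with the mean of probes for Hsp90b1 (0.36), Syvn1 (0.20) and Sec61a1 (0.010) in hCA-Notumor minus DMH, and for Canx (-0.23), Pdia6 (-0.46), Sel1l (-0.34) and Sec61a1 (-0.12) in hCA-Tumor minus hCA-Notumor. Turns with the dimmest probe are given first where it or the brightest probe gave a call. They came for Dnajc3 (-0.43 in hCA-Tumor minus DMH, -0.20 in the mean, -0.46 in hCA-Tumor minus hCA-Notumor) and Syvn1 in the mean (0.020). They also came in hCA-Notumor minus DMH for Hsp90b1 (0.74), Dnajb9 (0.27), Pdia6 (0.22), Sel1l (0.20), Syvn1 (0.66), Sec61a1 (0.24) and Trib3 (-0.63). In hCA-Tumor minus hCA-Notumor they came for Canx (-0.56), Pdia6 (-1.15), Sel1l (-0.77), Sec61a1 (-0.093) and Trib3 (0.84). With no call by either probe, signs turned in hCA-Tumor minus DMH for Trib3 (0.21), Ssr1 (0.24), Sec61a1 (0.15) and Derl2 (0.087). In the mean they turned so for Trib3 (-0.21), Sec61a1 (0.20), Hsp90b1 (0.056) and Calr (-0.030). The same held for Derl1 (0.072), Dnajc3 (0.025) and Ssr3 (0.045) in hCA-Notumor minus DMH, and for Syvn1 (-1.29) in hCA-Tumor minus hCA-Notumor.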

Other observations

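For chaperones outside the ER the counts of hCA-Tumor minus DMH lay near those of all features. Of 12 cytosolic and mitochondrial chaperones 3 were lower and 2 higher in hCA-Tumor than in DMH, 5 lower and 1 higher in hCA-Notumor than in DMH, and 1 lower and 5 higher in hCA-Tumor than in hCA-Notumor, where 15.9%, 17.3% and 20.6% of all features were lower and 21%, 18.4% and 27% higher. With slide as a block these counts were 3 and 2, 3 and 0, and 1 and 2. Hspb1, a small heat shock protein abundant in muscle, differed by 0.92 ± 0.11 from DMH in hCA-Tumor (limma adjusted p = 0.000754, block 1.05) and by 0.52 ± 0.11 from hCA-Notumor (block 0.87). Hsph1, a cytosolic exchange factor of Hsp70, was lower than in DMH in both groups (-0.83 ± 0.07 in hCA-Tumor and -0.93 ± 0.07 in hCA-Notumor, block -0.83 and -0.98). The mitochondrial chaperonin Hspd1 differed by -0.53 ± 0.05 from DMH in hCA-Tumor and by -0.43 ± 0.05 from hCA-Notumor. Dnaja1, a cytosolic J-domain protein, differed from DMH by -0.48 ± 0.04 in hCA-Tumor and -0.39 ± 0.04 in hCA-Notumor.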
